A study of Homo sapiens with 8 samples.

Results

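SCARNA9, a small Cajal body RNA, and 9 noncoding genes that host small nucleolar RNAs (GAS5, SNHG1, SNHG3, SNHG5, SNHG6, SNHG7, SNHG8, SNHG12 and ZFAS1) were examined after knockdown of KHSRP. SCARNA9 was chosen by its measured levels on these arrays, which were lower with KHSRP siRNA and varied between arrays, so its change is given as a description with no test, and the hosts were taken as a class of genes. All 10 genes had a probe, 29 probes in all, among 20249 genes with a probe on the array. All 29 were well above background on all 8 arrays and were tested, among 18760 tested probes for 12125 genes. KYSE850, an established line of human esophageal squamous carcinoma cells, was used throughout. Its total RNA was hybridised to one-colour Agilent arrays, 4 after a control siRNA and 4 after siRNA against KHSRP, an RNA-binding protein that acts in mRNA decay, splicing and microRNA maturation. Small interfering RNAs (siRNAs) direct the cleavage of mRNAs that they pair with. The study used more than 1 KHSRP siRNA, and the labels do not say which of them was used for which array, nor whether replicates came from separate cultures, so p-values measure the spread between these arrays.

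Small nucleolar RNAs (snoRNAs) guide chemical modification of ribosomal RNA, box C/D snoRNAs directing ribose methylation and box H/ACA snoRNAs directing pseudouridylation. Small Cajal body RNAs (scaRNAs) do the same for the RNAs of the spliceosome, and SCARNA9 is a guide for U2 snRNA. Most human guide RNAs lie in introns and are trimmed from the intron after the host transcript is spliced, while the spliced host RNA is exported and, in hosts such as GAS5, is held low by nonsense-mediated decay during translation. Many hosts belong to the terminal oligopyrimidine class, whose RNAs begin with a C followed by a run of pyrimidines.

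The start sites are shown because this first stretch is the sequence feature by which host RNAs are classed. Each line gives 10 bases before and 20 bases from the RefSeq start in GRCh38.p14, 5′ to 3′, with the unbroken pyrimidine run from the start in capitals.
SNHG12 (chr1:28581854-28581883, minus strand): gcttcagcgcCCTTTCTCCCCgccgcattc
SNHG5 (chr6:85678714-85678743, minus strand): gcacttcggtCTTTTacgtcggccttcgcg
SNHG7 (chr9:136728165-136728194, minus strand): ccttctcgtcCTCTgcgtgcgccggaggct
ZFAS1 (chr20:49278632-49278661, plus strand): gccattcgttCTTTCgcgtctgcggtgccc
SNHG1 (chr11:62855866-62855895, minus strand): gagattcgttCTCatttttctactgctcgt
SNHG8 (chr4:118278752-118278781, plus strand): ctcggcctttCacattcgggaagcgtcggg
SNHG3 (chr1:28505933-28505962, plus strand): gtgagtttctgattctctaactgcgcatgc
GAS5 (chr1:173869026-173869055, minus strand): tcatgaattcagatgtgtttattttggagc
A C followed by at least 3 pyrimidines stood at the start in 4 of the 8 hosts with a start sequence, and in 1914 of 35116 RefSeq starts (5.45%). The run was 11 bases long in SNHG12, 5 in SNHG5 and ZFAS1, and 4 in SNHG7. SNHG1 began with a shorter run, SNHG8 with a single C, and SNHG3 and GAS5 with a purine at the annotated start. RefSeq gives 1 start per gene here, so that other starts were not examined. Within the 9 hosts RefSeq placed 34 small RNA genes, 25 of box C/D and 9 of box H/ACA naming. GAS5 held 11 of them, SNHG1 8, SNHG12 4, ZFAS1 3, SNHG3, SNHG5 and SNHG7 2 each, and SNHG6 and SNHG8 1 each.

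On each array 45.1% to 49.4% of probes were well above background, and no spot was saturated. Levels are log2 signals minus the 75th percentile of the array (control probes excluded), so that 0 marks that percentile. Such levels are not compared between probes. KHSRP itself (A_23_P16157) had levels of 6.03, 5.81, 6.39 and 6.08 in control siRNA replicates 1 to 4 and of 2.52, 2.58, 2.88 and 2.85 in KHSRP siRNA replicates 1 to 4, a log2 fold change of -3.37. The squamous markers KRT5, KRT14, TP63, SOX2 and CDH1 were well above background on 8 of 8 arrays. Among markers of other cells, COL1A1 was so on 8 arrays, PTPRC on 4, and PECAM1 and DCN on 0. Replicates 1 and 2 of both groups shared one slide and replicates 3 and 4 another. The values that the authors deposited in the series matrix for KHSRP siRNA replicates 3 and 4 were those of each other's scanner file (r = 1), so that 2 numberings of the same 4 arrays exist, and the scanner numbering is used unless stated.

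SCARNA9 was lower on every KHSRP siRNA array than on any control array. Its levels at A_33_P3290443 were 2.18, 2.73, 1.53 and 3.16 in control siRNA replicates 1 to 4, and 0.40, 0.20, 1.20 and -0.71 in KHSRP siRNA replicates 1 to 4. The group means were 2.40 ± 0.71 and 0.27 ± 0.78 (SD, n = 4 each), a log2 fold change of -2.13 that left 22.8% of the control level. The groups did not overlap, which held for 14.8% of all tested probes, but the nearest arrays, control siRNA replicate 3 and KHSRP siRNA replicate 3, were separated by only 0.33. The difference was -2.16 within the first slide and -2.10 within the second. Normexp background correction gave the smallest change, -1.71, and leaving out 1 array gave changes from -2.44 to -1.80.

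**Figure D1:**
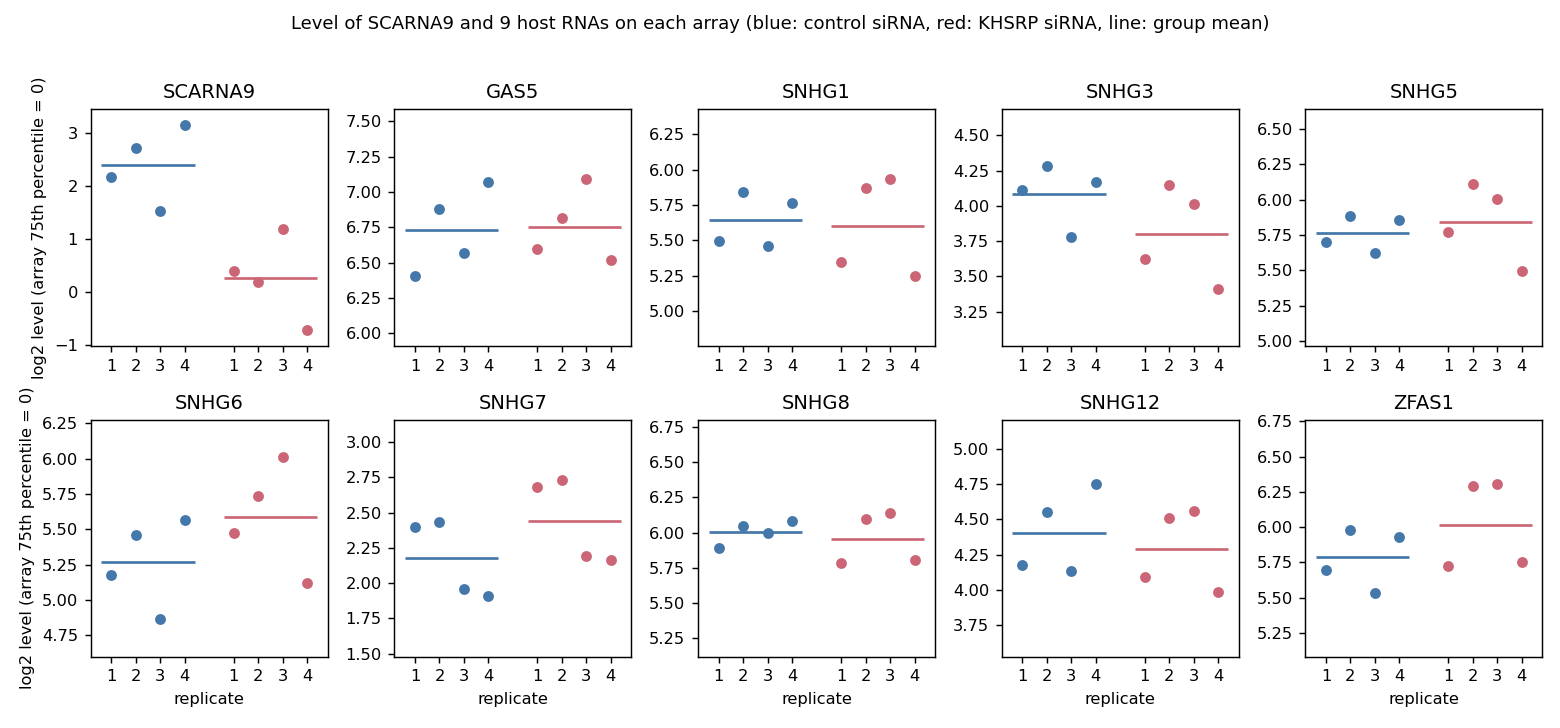
Log2 level (vertical axis, relative to the 75th percentile of the array) of SCARNA9 and the probe that stands for each of 9 host RNAs on each array, by replicate (horizontal axis). Points are single arrays, blue for control siRNA and red for KHSRP siRNA, and lines are group means (n = 4). SCARNA9, chosen for its fall, is the 1 gene of the 10 whose groups do not overlap, as held for 14.8% of all tested probes.

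The spread of the SCARNA9 differences depended on how arrays were paired. With the scanner numbering the differences between same-numbered arrays were -1.78, -2.53, -0.33 and -3.87 (SD 1.48). With the series matrix numbering they were -1.78, -2.53, -2.24 and -1.97 (SD 0.33). All 4 pairs were lower with KHSRP siRNA under either numbering, which any pairing gives where groups do not overlap. The change of -2.13 is likewise the mean of the differences under any pairing.

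SCARNA9 lies within CEP295, which encodes a centriole protein. CEP295 (A_23_P313734) had levels of 1.37, 1.29, 1.72 and 1.47 with control siRNA and 1.30, 0.79, 1.31 and 1.49 with KHSRP siRNA, and its groups overlapped. Its log2 fold change was -0.24 (SE 0.17, limma adjusted p = 0.528, 95% interval -0.64 to 0.16). The change of SCARNA9 was therefore lower than that of its enclosing gene by 1.89 on the log2 scale. SCARNA9L, a gene related to SCARNA9 that lies within EIF1AX, was bright enough on 4 control and 3 KHSRP siRNA arrays and had a log2 fold change of -0.68 (limma adjusted p = 0.436, and 0.0062 with arrays blocked by their series matrix number). How far the 2 probes read each other's RNA was not tested, since no probe sequences were used.

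None of the 9 hosts passed the test. By the tested probe with the highest mean level, 0 of 9 hosts were called at an adjusted p under 0.05 in limma, against 752 of 12125 genes (6.20%), and 0 of 9 had an unadjusted p under 0.05, against 20.8% of genes. Their median log2 fold change was 0.03, beside 0.0058 over all tested genes. Of the hosts, 5 were higher and 4 lower with KHSRP siRNA (4 and 5 under median scaling, 6 and 3 under quantile normalization), where 50.9% of genes were higher. Log2 fold changes ran from -0.29 to 0.32 with standard errors from 0.12 to 0.23, and the adjusted p lay between 0.484 and 0.970. The 95% intervals reached at most from -0.72 to 0.83. Of all 28 host probes 0 were called, against 5.54% of tested probes. All 28 had overlapping groups, where 14.8% of tested probes had groups that did not overlap. SNHG5 accounts for 18 of the 28. Of the 1040 tested probes called, 34.6% were higher, and under median scaling 17.2% of 570.

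**Figure D2:**
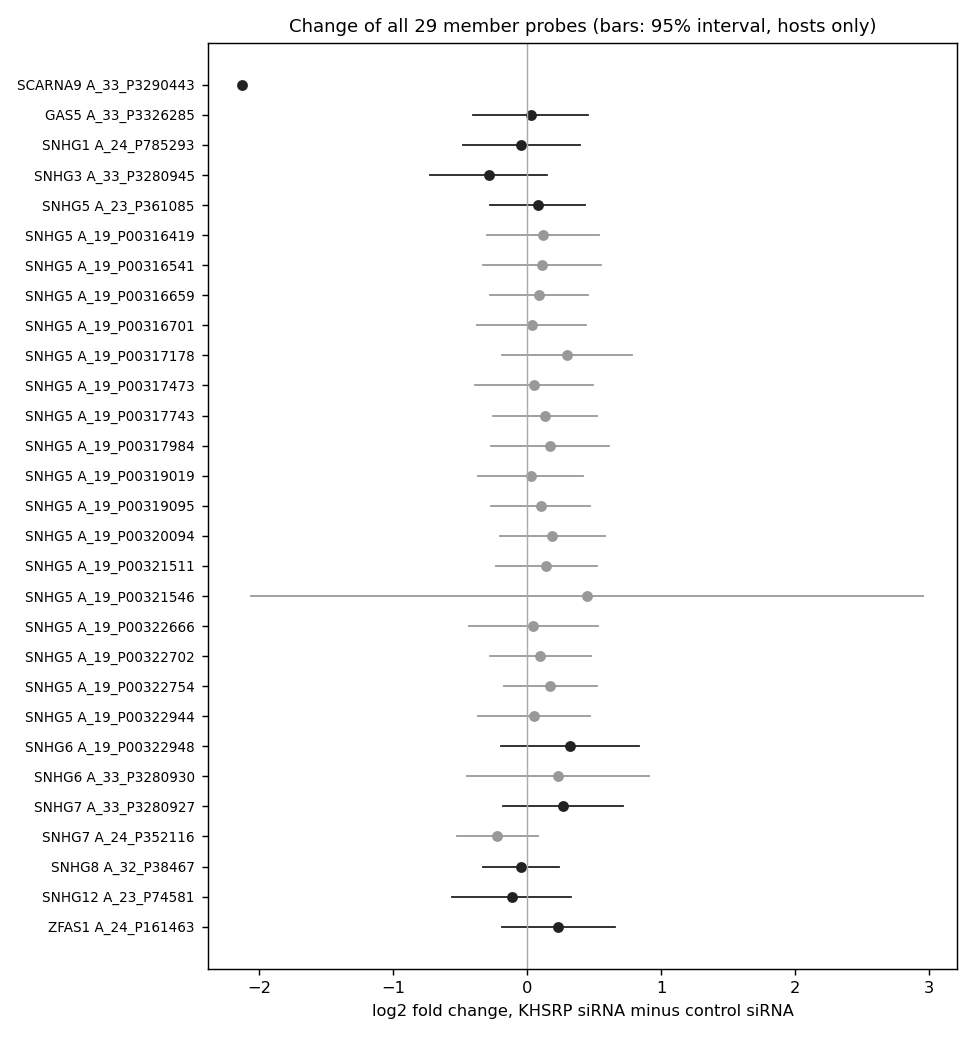
Log2 fold change (horizontal axis, KHSRP siRNA minus control siRNA, n = 4 each) of all 29 probes of the 10 genes. Black marks the probe that stands for a gene and grey its other probes, and bars are 95% intervals from limma, drawn for hosts only; every host interval includes 0, and SCARNA9 lies at -2.13.

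GAS5 and SNHG1, which enclose mainly box C/D snoRNA genes, differed by less than their SE. GAS5, a spliced RNA that accumulates when growth stops, had levels of 6.41, 6.88, 6.57 and 7.07 with control siRNA and 6.60, 6.82, 7.09 and 6.52 with KHSRP siRNA at A_33_P3326285. This was a log2 fold change of 0.03 (95% interval -0.41 to 0.46, limma adjusted p = 0.970). SNHG1 (A_24_P785293) had levels of 5.50, 5.84, 5.46 and 5.76 with control siRNA and 5.35, 5.87, 5.93 and 5.25 with KHSRP siRNA. For GAS5 the groups covered nearly the same range, and for SNHG1 the KHSRP siRNA arrays spread wider than the controls on both sides. The SNHG1 log2 fold change was -0.04 (95% interval -0.48 to 0.39), and it turned to 0.01 under quantile normalization, while that of GAS5 turned to -0.05 under median scaling.

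SNHG5, which encloses SNORD50A and SNORD50B, was read by 18 probes. At the brightest, A_23_P361085, its levels were 5.70, 5.88, 5.63 and 5.86 with control siRNA and 5.77, 6.11, 6.004 and 5.49 with KHSRP siRNA, a log2 fold change of 0.08 (95% interval -0.28 to 0.43, limma adjusted p = 0.869). The KHSRP siRNA arrays held both the highest and the lowest level. All 18 probes were higher with KHSRP siRNA, by a median of 0.11, and 0 were called. Without KHSRP siRNA replicate 2 the split was 10 higher and 8 lower with a median of 0.0075, and without KHSRP siRNA replicate 4 the median was 0.21. The median without control siRNA replicate 3 was 0.06, without control siRNA replicate 4 it was 0.17, and without KHSRP siRNA replicate 3 it was 0.04. Under median scaling 5 of the 18 turned lower, and under normexp background correction 4. These probes share 1 gene and the same 8 arrays, so that they are repeat readings and not replicates. Without A_19_P00321546, 17 probes had log2 fold changes from 0.03 to 0.30 with standard errors from 0.15 to 0.21.

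ZFAS1, which encloses SNORD12, SNORD12B and SNORD12C, had levels of 5.69, 5.98, 5.54 and 5.93 with control siRNA and 5.72, 6.29, 6.31 and 5.75 with KHSRP siRNA at A_24_P161463. KHSRP siRNA replicates 2 and 3 lay above all controls and the other pair within their range. The log2 fold change of ZFAS1 was 0.23 (95% interval -0.19 to 0.66, limma adjusted p = 0.577). SNHG6, which encloses SNORD87, had levels of 5.18, 5.46, 4.86 and 5.57 with control siRNA and 5.47, 5.74, 6.01 and 5.12 with KHSRP siRNA at A_19_P00322948. Its log2 fold change was 0.32, the highest among the probes that stand for the hosts (95% interval -0.20 to 0.83, limma adjusted p = 0.518). The other SNHG6 probe, A_33_P3280930, gave 0.23 (adjusted p = 0.773).

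Hosts of box H/ACA snoRNAs were also not called. SNHG3, which encloses SNORA73A and SNORA73B, had levels of 4.11, 4.28, 3.78 and 4.17 with control siRNA and 3.62, 4.14, 4.01 and 3.41 with KHSRP siRNA at A_33_P3280945. The log2 fold change of SNHG3 was -0.29, the lowest among the hosts (95% interval -0.72 to 0.15, limma adjusted p = 0.484). KHSRP siRNA replicates 1 and 4 lay below all controls. SNHG8, which encloses SNORA24, had levels of 5.89, 6.04, 5.999 and 6.08 with control siRNA and 5.78, 6.10, 6.14 and 5.81 with KHSRP siRNA at A_32_P38467, and its log2 fold change was -0.05 (95% interval -0.33 to 0.24). SNHG12, which encloses 3 box H/ACA genes and 1 box C/D gene, had levels of 4.18, 4.56, 4.13 and 4.75 with control siRNA and 4.10, 4.51, 4.56 and 3.99 with KHSRP siRNA at A_23_P74581. Its log2 fold change was -0.12 (95% interval -0.56 to 0.33), with groups that overlapped over most of their range.

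Only SNHG5, SNHG6 and SNHG7 were read by more than 1 probe. Of these SNHG7, which encloses SNORA17A and SNORA17B, was the 1 whose probes disagreed in direction. At A_33_P3280927 its levels were 2.40, 2.43, 1.96 and 1.91 with control siRNA and 2.68, 2.73, 2.19 and 2.17 with KHSRP siRNA, a log2 fold change of 0.27 (95% interval -0.18 to 0.71, limma adjusted p = 0.535). Both groups were higher on the first slide than on the second, and within each slide both KHSRP siRNA arrays lay above both controls, by 0.29 and 0.24. With the slide as a block the adjusted p was 0.119. The second SNHG7 probe, A_24_P352116, had a log2 fold change of -0.22 (adjusted p = 0.420), and which transcripts each probe reads was not tested.

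The hosts varied together from array to array. In 9 of the 10 genes, SNHG7 being the exception, control siRNA replicates 2 and 4 lay above replicates 1 and 3, an order found in 33.6% of all tested probes. In 8 of 10, without SNHG7 and SCARNA9, KHSRP siRNA replicates 2 and 3 lay above replicates 1 and 4 (35.2% of tested probes), and these 8 genes showed both orders, as did 24.6% of tested probes. Deviations from the group mean over the 8 arrays had a median Pearson r of 0.86 over the 36 pairs of hosts. Without SNHG7 the 28 remaining pairs lay between 0.65 and 0.98. These correlations describe 8 arrays, which share their RNA, labelling and scaling between the genes. For the deviations of SCARNA9, r was 0.95 with SNHG6, 0.84 with SNHG12, 0.83 with GAS5, 0.59 with SNHG8 and 0.05 with SNHG7.

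**Figure D3:**
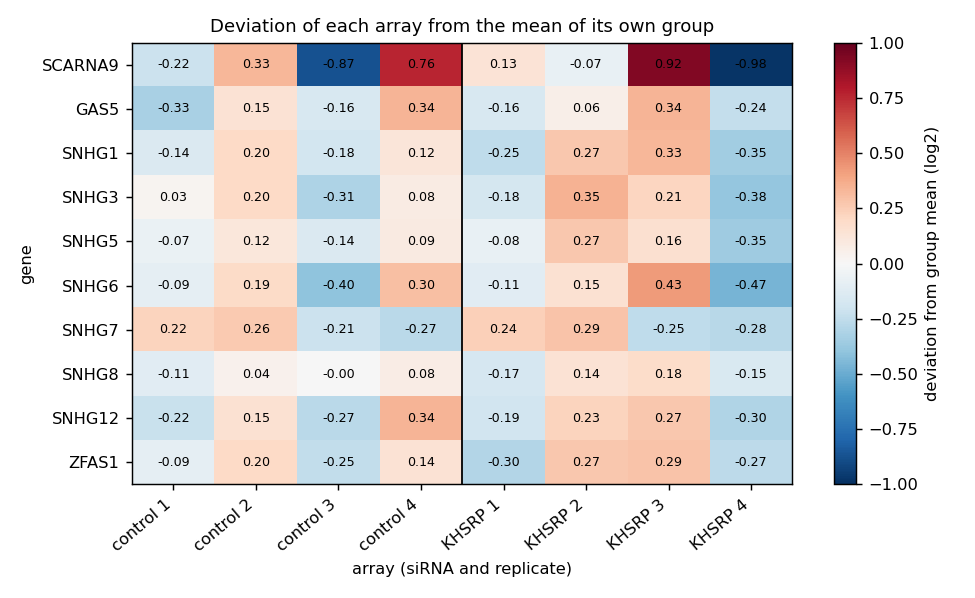
Deviation of each array from the mean of its own group (colour and printed value, log2) for the 10 genes (rows) on the 8 arrays (columns), control siRNA left of the line and KHSRP siRNA right of it. SCARNA9 has the widest range of the 10, from -0.98 to 0.92, and SNHG7 is the row that is positive on replicates 1 and 2 and negative on replicates 3 and 4 in both groups.

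Pairing arrays by number in the series matrix narrowed most host differences. The SNHG6 differences were then 0.26 to 0.44 in all 4 pairs and those of SNHG7 A_33_P3280927 0.20 to 0.30. With that number as a block, limma called SNHG6 (0.32, adjusted p = 0.019) and SNHG7 (0.27, adjusted p = 0.024), both higher, which is 2 of 9 hosts where the same block called 33.0% of genes. The block was chosen because its arrays deviated together in these same data, so it is not independent of the values tested. The second probe of each gene was not called by this block. SNHG6 A_33_P3280930 gave 0.23 (adjusted p = 0.519), with pair differences from -0.66 to 0.81. SNHG7 A_24_P352116 gave -0.22 (adjusted p = 0.159). SNHG3 was lower in all 4 pairs, by -0.49 to -0.14, with an adjusted p of 0.054, and ZFAS1 was higher in all 4 with 0.079. SNHG12 was also lower in all 4 pairs, and the differences of GAS5, SNHG1, SNHG5 and SNHG8 took both signs. With the scanner numbering as a block 0 hosts were called.

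**Figure D4:**
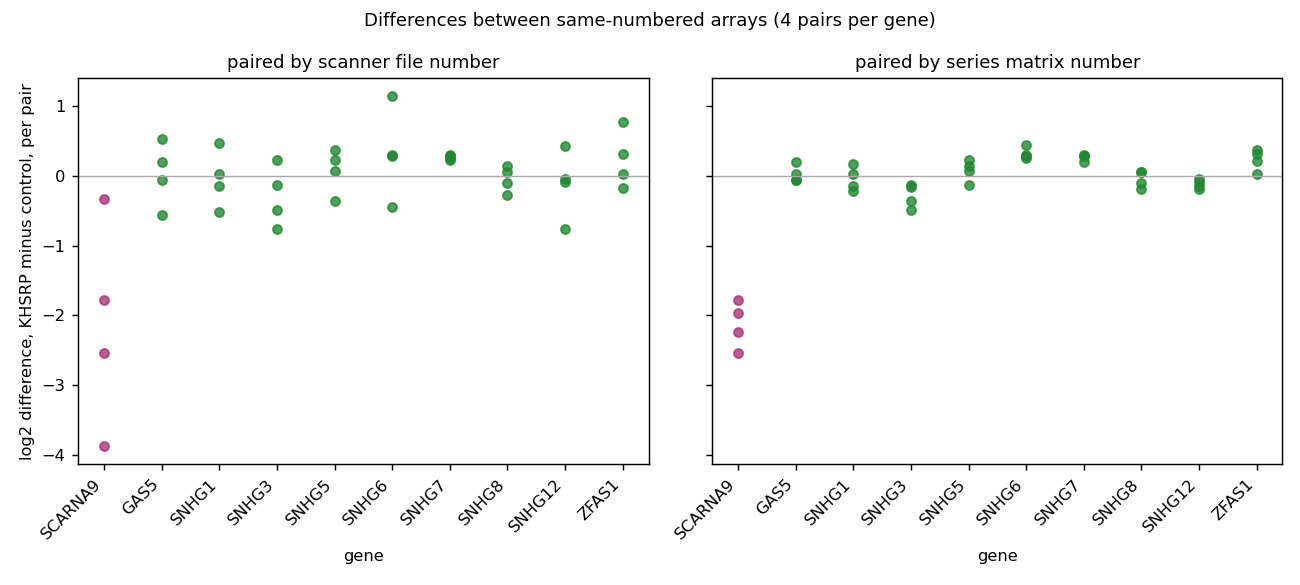
Log2 difference between same-numbered arrays (vertical axis, KHSRP siRNA minus control siRNA) for the 10 genes (horizontal axis), with 4 pairs per gene as points, numbered by scanner file (left) and by series matrix (right). The SCARNA9 differences span -3.87 to -0.33 on the left and -2.53 to -1.78 on the right.

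Beyond the 9, other noncoding hosts included 1 that fell. Of 17 listed genes 8 were tested, 1 was called (6.20% of all genes were) and the median was 0.11. SNHG9 (A_33_P3280965), the host of SNORA78, had levels of 5.65, 5.66, 5.73 and 5.62 with control siRNA and 5.01, 4.96, 4.94 and 5.07 with KHSRP siRNA. The groups did not overlap, and SNHG9 fell by 0.67 on the log2 scale (SE 0.10, limma adjusted p = 0.0067), to 63.0% of the control level. It was called without each array in turn. It was not called with no filter on dim probes or with the scanner numbering as a block (limma adjusted p = 0.068 and 0.076). Its SD was 0.05 with control siRNA and 0.06 with KHSRP siRNA. With the series matrix number as a block 4 of the 8 were called, SNHG9 and SNHG17 (-0.38, adjusted p = 0.019) lower and SNHG29 (0.27, adjusted p = 0.032) and EPB41L4A-AS1 (0.36, adjusted p = 0.027) higher, where that block called 33.0% of genes.

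Probes named for the small RNAs themselves were examined next. Of 23 tested genes named SNORA, SNORD or SCARNA other than SCARNA9, 22 did not pass the test, and 20 had lower and 3 higher values, with a median log2 fold change of -0.27 beside 0.0058 over all genes. Under the other scalings 20 to 22 were lower, 18 under normexp background correction, 17 without control siRNA replicate 3 or 4, and 16 on the first slide alone. Only 1 was called (4.35%, beside 6.20% of genes). This was SNORA62 (A_33_P3334448), a box H/ACA snoRNA, with levels of 1.46, 1.89, 0.94 and 1.45 with control siRNA and -0.64, 0.28, 0.36 and -0.83 with KHSRP siRNA. The 2 groups did not overlap, and SNORA62 fell by 1.64 on the log2 scale (SE 0.32, limma adjusted p = 0.022). It was called in 4 of 8 fits that left out an array, and not without control siRNA replicate 1, 2 or 4 or KHSRP siRNA replicate 1. Nor was it called by limma with no filter on dim probes or with the scanner numbering as a block (adjusted p = 0.076 and 0.094). The methods' t-test gave an adjusted p of 0.060. SCARNA16 (-1.21, adjusted p = 0.104) and SCARNA17 (-1.19, adjusted p = 0.074) had the next largest differences. Both were called by limma with the series matrix number as a block (adjusted p = 0.0027 and 0.0029). With the series matrix number as a block 10 of the 23 were called, all lower, where the block called 17.1% of genes as lower and 15.9% as higher.

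Guide RNAs were set beside the genes that enclose them. RefSeq placed 530 of 573 small RNA genes inside another gene, and 22 pairs of a small RNA gene and an enclosing gene had both tested. These held 19 small RNA genes, since SNORA73A, SNORA73B and SCARNA16 each lie in 2 tested genes and enter as 2 pairs. The small RNA gene had the lower log2 fold change in 14 of the 22, and in 13 of 21 without SCARNA9, which was chosen for its change. Each gene entered by its tested probe with the highest mean level. For SCARNA7 (-0.30) in KPNA4, and for SNORA73B in SNHG3, the order depended on the probe. That probe of KPNA4 gave 0.04, while A_19_P00802654 and A_19_P00813347 gave -1.37 and -1.15. After SCARNA9 in CEP295, the widest gap was that of SCARNA16 in SNHG20 (-1.27). SNORA26, in the noncoding host DANCR, differed from it by -0.83. Within the 9 hosts only SNORA73A and SNORA73B had a probe. Their log2 fold changes were -0.28 and -0.45, beside -0.29 for SNHG3 and -0.04 for RCC1, which also encloses them. A second SNORA73B probe, A_33_P3355407, gave -0.24, above SNHG3. With the series matrix number as a block limma called SNORA73B at both probes (adjusted p = 0.042 and 0.049). Enclosure was taken without strand, and a probe for a small RNA can also read the unspliced host RNA. The labelling kit primes from poly(A) tails, which mature guide RNAs generally lack, so that mature RNA and longer precursors cannot be told apart here.

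**Figure D5:**
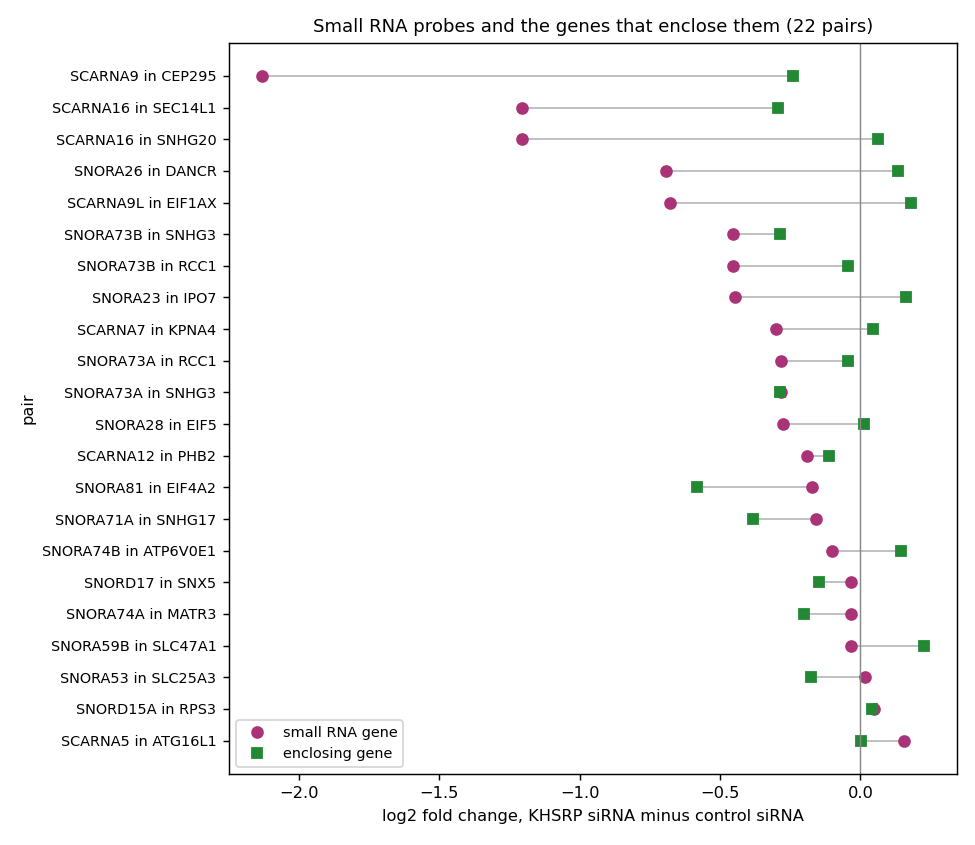
Log2 fold change (horizontal axis, KHSRP siRNA minus control siRNA) of small RNA genes (circles) and of the genes that enclose them (squares) in 22 pairs, ordered by the small RNA gene. The circle lies left of the square in 14 of the 22 pairs, furthest for SCARNA9 in CEP295.

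Of the 8 core proteins of snoRNA particles 1 was called, beside 6.20% of all genes, with a median of 0.01. GAR1 (A_23_P58280), a core protein of box H/ACA particles and of telomerase, had levels of 4.96, 5.06, 4.98 and 5.09 with control siRNA and 3.82, 4.26, 4.29 and 3.98 with KHSRP siRNA. The groups did not overlap, and GAR1 fell by 0.94 on the log2 scale (SE 0.13, limma adjusted p = 0.0067), a call that held without each array in turn. GAR1 was not called with the scanner numbering as a block (limma adjusted p = 0.065). Its partners DKC1 (-0.09), NHP2 (0.12) and NOP10 (0.14) were not called, nor were the box C/D proteins FBL, NOP56, NOP58 and SNU13, which ranged from -0.05 to 0.16.

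Of 15 tested assembly and Cajal body factors 1 was called, beside 6.20% of all genes, with a median of -0.0025. NUFIP1 (A_23_P36939), a factor for the assembly of box C/D particles, had levels of -1.90, -1.74, -1.60 and -2.01 with control siRNA and -3.59, -3.09, -4.82 and -4.31 with KHSRP siRNA. Its signal exceeded background clearly on all 4 controls but on 1 of 4 KHSRP siRNA arrays. NUFIP1 thus passed the filter through the controls alone, and its lower levels are poorly measured. Its log2 fold change was -2.14 (limma adjusted p = 0.010), and -0.28 without a call under normexp background correction. With the scanner numbering as a block NUFIP1 was not called (limma adjusted p = 0.070). With the series matrix number as a block 7 of the 15 were called, 5 lower and 2 higher, where it called 33.0% of genes. COIL, the scaffold of Cajal bodies, had a log2 fold change of 0.24 (adjusted p = 0.429, and 0.034 with that block) and WRAP53, which brings scaRNAs to them, one of 0.18 (adjusted p = 0.856). Among 14 nonsense-mediated decay factors 0 were called by limma and 2 had an unadjusted p under 0.05. The block called 2 of the 14, 1 in each direction. SMG8 had a log2 fold change of -0.53 (adjusted p = 0.215, and 0.015 with the block) and UPF1, the central helicase of the pathway, one of 0.08.

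Of 7 tested other small noncoding RNAs 1 was called, beside 6.20% of all genes. With the series matrix number as a block 2 were called, both lower, where the block called 33.0% of genes, 17.1% as lower. RNU2-1 (A_33_P3279708), the U2 snRNA, had levels of 3.03, 2.98, 3.07 and 3.09 with control siRNA and 2.69, 2.69, 2.52 and 2.41 with KHSRP siRNA, all below the controls. Its log2 fold change was -0.47 (SE 0.11, limma adjusted p = 0.045). The call was lost in 8 of 8 fits that left out an array and under quantile normalization and median scaling, and U2 has many near-identical copies. It was also lost with no filter on dim probes and with the scanner numbering as a block (limma adjusted p = 0.241 and 0.167). TERC, the telomerase RNA, which also has a box H/ACA domain, had levels of 2.54, 3.26, 2.23 and 3.41 with control siRNA and 1.61, 2.40, 2.50 and 1.24 with KHSRP siRNA. Control siRNA replicate 3 lay below KHSRP siRNA replicates 2 and 3, and its log2 fold change was -0.92 (adjusted p = 0.198, and 0.0013 with the series matrix number as a block). RN7SK, RMRP and RPPH1 changed by 0.07, 0.05 and 0.02.

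Of 213 tested protein-coding genes that enclose a small RNA gene 11 were called, each lower (5.16%, where 4.07% of all genes were called lower), and the median was -0.04. With the series matrix number as a block 48 were called, 36 lower and 12 higher, where the block called 17.1% of genes as lower and 15.9% as higher. The largest falls were those of ITGB1, an integrin subunit, by 2.19 on the log2 scale, MED24, a Mediator subunit, by 1.76, and BUB1, a mitotic checkpoint kinase, by 1.14. The translation factors EIF4A2 and EIF4G2 fell by 0.58 and 0.65 (limma adjusted p = 0.016 and 0.0085). SNORA81, which lies in EIF4A2, changed by -0.17 (adjusted p = 0.546).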

How the data were processed

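RNA of 4 control siRNA and 4 KHSRP siRNA samples was compared, with groups taken from the labels and every sample used. The 10 genes and the gene lists were chosen with earlier results of these data known. The labels name the RNeasy Mini Kit and the methods RNA-Iso Plus for the extraction. The authors extracted spots with Agilent Feature Extraction (11.5.1.1 per the file headers, 12.6 in the submitters' processing notes), and the deposited processed signal is a background-subtracted, detrended intensity, not scaled between arrays. The deposited series matrix holds log2 values that the methods attribute to GeneSpring.

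Control and outlier spots were dropped, log2 signals were averaged per probe, and the 75th percentile of the array was subtracted. A probe was tested where, on all 4 arrays of a group, a share of 0.5 or more of its spots exceeded background by the scanner's criterion. Probes were named through RefSeq accessions (GRCh38.p14), 27241 of 42405 with a symbol, and sequences are RefSeq's, matched for 8 of 9 hosts. The file headers name another build, so that no other coordinates are given. The tested probe with the highest mean level stood for a gene.

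limma 3.58.1 (R 4.3.3) was fitted to all 8 arrays, two-sided and with no block. P-values were adjusted by Benjamini-Hochberg over every tested probe, and a probe is called at an adjusted p under 0.05. The fit was tested on simulated data, and other steps used Python 3.11.15. Genes named were the 10 genes' probes, KHSRP, the gene enclosing SCARNA9, the 3 largest changes among the called of each list, called small RNA probes, and the 5 genes most correlated with SCARNA9. Some genes that this rule or a list holds are not reported here. Other genes were named after their values were seen. Same-numbered arrays of the series matrix deviated together over all tested probes (r = 0.52, 0.43, 0.83 and 0.84). The block by those numbers is therefore given where it changes the count of a list, and for several genes whose call it changes. The pairing comes from that check, and the labels name no shared batch. The alternatives covered scaling, background correction (normexp with an offset of 50 on median brightness), the series matrix, filters, blocks, the variance model, array weights, the methods' t-test, single slides and left-out arrays. Enclosing genes were found without strand.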

Additional observations from a re-analysis of the deposited data

Results flagged for a closer look

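Of 58 groups of 4 arrays examined by Dixon's test, 3 held an array whose gap to its neighbour, as a ratio to the group's range, exceeded the 95% limit, where chance gives about 1 in 20 groups. At SNHG5 A_19_P00321546, control siRNA replicate 2 was low at -0.38, with the nearest control at 3.49 (ratio 0.934). On the same probe KHSRP siRNA replicate 1 was at 0.69 and the other KHSRP siRNA arrays at 3.36 to 4.40. Without control siRNA replicate 2 the log2 fold change of this probe turned from 0.45 to -0.56. At SNHG5 A_19_P00320094, control siRNA replicate 3 was low at 2.27, with the nearest at 2.68 (ratio 0.856). At SNHG7 A_24_P352116, KHSRP siRNA replicate 1 was low at -1.06, with the nearest at -0.72 (ratio 0.840). The other SNHG5 probes showed no such fall on control siRNA replicate 2, where their median deviation was 0.12. The cause was not tested for any of the 3.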

How the results depend on the processing

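The 24 alternatives included 8 without 1 array each. The match by a gene name column was not run, since the scanner files hold none, and the count of called hosts by the mean over all probes of a gene was not run.

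SCARNA9, chosen for its fall, kept its direction in all, between -2.44 and -1.71. Since its groups did not overlap, left-out arrays and single slides could give no other direction. The fall of KHSRP ranged from -3.46 to -3.27, and with 2 arrays a group it was -3.37 on each slide and not called. The number of probes called was 570 under median scaling, 319 with no filter on dim probes, 0 on each slide alone and 489 to 766 without 1 array. The hosts' median ranged from -0.09 to 0.11, taking both signs, and 0 hosts were called in any alternative but the block by series matrix numbers.

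With the replicate block by scanner file numbers 156 probes and 0 hosts were called. Pairs 1 and 2 there are the same as in the series matrix numbering (r = 0.52 and 0.43). Pairs 3 and 4 did not deviate together (r = -0.67 and -0.64). With the replicate block by series matrix numbers 5645 probes and 2 hosts were called, and the call changed for no other host probe.

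Changes near 0 turned sign. SNHG1 gave 0.0114 under quantile normalization. Median scaling gave -0.0487 for GAS5, and for the SNHG5 probes -0.0405 (A_19_P00316701), -0.0219 (A_19_P00317473), -0.0222 (A_19_P00322944), -0.0487 (A_19_P00319019) and -0.0271 (A_19_P00322666). Normexp gave -0.0092 (A_19_P00316701), -0.0409 (A_19_P00319019), -0.0041 (A_19_P00322666) and -0.0171 (A_19_P00322702). The second slide alone gave -0.0153 for GAS5, and -0.0473 (A_19_P00316659), -0.0523 (A_19_P00322944), -0.0034 (A_19_P00317473), -0.055 (A_19_P00319019) and -0.0094 (A_19_P00322666). Without 1 array the change ran from -0.0872 to 0.139 for GAS5, -0.153 to 0.0746 for SNHG1, -0.107 to 0.0102 for SNHG8 and -0.0116 to 0.195 for SNHG5 A_23_P361085. For the other SNHG5 probes that turned it ran from -0.0063 to 0.22 (A_19_P00316419), -0.0044 to 0.19 (A_19_P00316659), -0.0815 to 0.14 (A_19_P00316701), -0.072 to 0.189 (A_19_P00317473), -0.0945 to 0.125 (A_19_P00319019), -0.0038 to 0.21 (A_19_P00319095), -0.56 to 1.25 (A_19_P00321546), -0.0816 to 0.21 (A_19_P00322666), -0.0079 to 0.18 (A_19_P00322702) and -0.0585 to 0.191 (A_19_P00322944). The cause was not tested.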

Other observations

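Outside the 10 genes, the deviations from the group mean most like those of SCARNA9 over the 8 arrays included those of CLDN23 (r = 0.992), MOXD1 (0.989), ADAM19 (0.987) and ARHGEF39 (0.986), among 6080 tested probes with a symbol and an SD of at least 0.3 within groups. CLDN23 encodes a claudin of tight junctions and ADAM19 a membrane metalloproteinase. None of these 4 was called between the groups by limma, with log2 fold changes from -0.34 for MOXD1 to 0.72 for ADAM19 and adjusted p from 0.529 to 0.945. With the series matrix number as a block ADAM19 was called (adjusted p = 0.014). These correlations describe 8 arrays and share their labelling and scaling.

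SCARNA16 had a second tested probe, A_19_P00315843, with levels of 0.85, 1.23, 0.40 and 1.72 in control siRNA replicates 1 to 4. In KHSRP siRNA replicates 1 to 4 they were -0.79, 0.42, 0.60 and -0.99. The log2 fold change was -1.24 (limma adjusted p = 0.143, and 0.0041 with the series matrix number as a block). SCARNA9 likewise was highest on control siRNA replicate 4 and lowest on replicate 3. Control siRNA replicates 2 and 4 lay above 1 and 3 in 33.6% of tested probes. Between KHSRP siRNA replicates 1 and 2 the order was opposite to that of SCARNA9.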
